A study of Mus musculus with 9 samples.

Results

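The sterol and fatty acid synthesis genes are a set of 33 genes that make, sense, move or modify cholesterol and fatty acids. The rule takes them from a list of symbols by their place in the pathway, and uses no measured value itself, though the list was drawn up with earlier results of these data known. They are 33 of 47729 gene identifiers in the files, and all 33 passed the filter on low counts that left 13223 genes for testing. By role, 8 belong to the mevalonate and isoprenoid arm, 11 turn farnesyl units into squalene and then sterols, 5 regulate the pathway, 3 transfer, esterify or hydroxylate cholesterol, and 6 make fatty acids.

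RNA-seq measured these genes in 9 libraries of sorted mouse peritoneal macrophages, 3 in each of 3 populations. All mice carried Cx3cr1CreERT2-IRES-EYFP/+, a tamoxifen-inducible Cre with a fluorescent tag in the Cx3cr1 gene, and Rosa26-stopfl-tdTomato/+, a reporter that Cre switches on. All of them, the resident group included, received IL-4 (5 µg) bound to anti-IL4 (25 µg) every other day from 4 days before harvest, a stimulus known to drive alternative activation, and no library analysed here is without it. The monocyte-derived macrophages were taken on day 4 after 2 ml of thioglycollate, which draws blood monocytes into the cavity. The converted macrophages came from mice that had 2 ml of thioglycollate and then ate a diet with tamoxifen over 10 weeks before harvest. Cre in these mice is made only by cells that express Cx3cr1, and the labels do not give the sort gates. The resident macrophages had no further treatment in the labels. The labels give no animal ages, and no label ties the libraries of a group to different animals. The p-values are therefore set by the spread among libraries, part of which may be technical.

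Cells build cholesterol from acetyl-CoA by way of mevalonate, farnesyl diphosphate, squalene and lanosterol, and build fatty acids from the same acetyl-CoA by way of malonyl-CoA. Both routes are switched on by the sterol regulatory element-binding proteins (SREBPs), which the escort protein SCAP carries to the Golgi for cleavage when membranes are low in cholesterol and which INSIG proteins hold back in the endoplasmic reticulum when they are not. Macrophages take up cholesterol from dying cells and lipoproteins, store it as esters, export it through liver X receptor targets, and make the oxysterol 25-hydroxycholesterol, a known brake on SREBP cleavage.

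The stretches of DNA just before the gene starts are shown here for 5 genes because they carry the letters that the pathway's factors are known to read, or lack them, in members whose levels are set side by side further on. Each is the 250 bases before a RefSeq gene start (GRCm38.p6), written 5′ to 3′ on the gene's strand. Capitals mark CCAAT, the box bound by NF-Y, a known partner of the SREBPs, or its reverse complement ATTGG, and TCACNCCAC, a form of the sterol regulatory element. Hmgcs1 (HMG-CoA synthase, chr13:119690101-119690350, plus strand) stands for the mevalonate arm, and Mvd (diphosphomevalonate decarboxylase, chr8:122443423-122443672, minus strand) is the member of that arm whose 3 groups did not overlap. Fasn (fatty acid synthase, chr11:120824548-120824797, minus strand), Acly (ATP-citrate lyase, chr11:100528001-100528250, minus strand) and Soat1 (cholesterol acyltransferase, chr1:156474329-156474578, minus strand) are members that differed between groups.
Hmgcs1: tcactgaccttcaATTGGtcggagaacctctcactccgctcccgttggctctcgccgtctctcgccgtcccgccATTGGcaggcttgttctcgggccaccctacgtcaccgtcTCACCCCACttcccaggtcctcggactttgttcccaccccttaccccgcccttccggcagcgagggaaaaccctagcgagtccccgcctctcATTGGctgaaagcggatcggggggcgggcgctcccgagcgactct
Mvd: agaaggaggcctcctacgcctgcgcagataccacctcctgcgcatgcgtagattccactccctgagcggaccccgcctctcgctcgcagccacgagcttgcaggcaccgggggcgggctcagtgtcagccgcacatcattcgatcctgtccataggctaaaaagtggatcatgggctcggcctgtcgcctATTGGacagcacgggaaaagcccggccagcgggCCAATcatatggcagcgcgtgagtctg
Fasn: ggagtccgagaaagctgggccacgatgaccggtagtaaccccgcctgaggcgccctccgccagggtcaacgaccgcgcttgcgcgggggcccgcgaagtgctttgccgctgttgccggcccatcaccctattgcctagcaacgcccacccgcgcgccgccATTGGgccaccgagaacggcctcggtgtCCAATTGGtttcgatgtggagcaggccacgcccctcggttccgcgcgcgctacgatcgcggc
Acly: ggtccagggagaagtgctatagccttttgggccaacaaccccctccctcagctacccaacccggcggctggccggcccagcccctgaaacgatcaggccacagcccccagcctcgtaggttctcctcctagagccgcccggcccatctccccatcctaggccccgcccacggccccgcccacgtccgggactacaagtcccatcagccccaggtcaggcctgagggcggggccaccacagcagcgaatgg
Soat1: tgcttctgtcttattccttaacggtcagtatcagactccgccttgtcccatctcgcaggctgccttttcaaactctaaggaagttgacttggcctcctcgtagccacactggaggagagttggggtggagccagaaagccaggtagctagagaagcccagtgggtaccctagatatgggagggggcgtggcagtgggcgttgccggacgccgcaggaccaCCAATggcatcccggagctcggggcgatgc

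Of the 33 members, 27 had at least 1 such window in the RefSeq table, 35 windows in all, and Fdps, Fdft1, Sqle, Stard4, Scd1 and Scd2 had none. Searched on both strands, CCAAT was found in 15 of the 16 mevalonate and sterol genes with a window (15 of 19 windows, 78.9%), against 33.8% of all 32851 windows of the same length in the table. In the fatty acid genes it was found in 1 of 4, Fasn. The form TCACNCCAC of the sterol regulatory element was found in 1 member, Hmgcs1 (2.86% of the 35 windows), against 1.05% of all windows. Other forms of the element were not searched. The E-box CACGTG, another sequence that SREBPs can bind, was found in Hsd17b7, Sc5d, Dhcr7, Scap and Insig1 (14.3% of the 35 windows), against 6.02% of all windows. No 2 different motifs overlapped in a member's window. A match describes letters and is not a measured binding site, and 9 of the windows lie wholly inside the gene as GENCODE draws it: those of Acaca and Tm7sf2, and further windows of Pmvk, Dhcr7, Srebf1 and Insig2. The bases just after the start lie in a GENCODE transcript of the gene for 29 of the 35 windows, and not for Hmgcs1. GENCODE exons also cover part or all of other windows, such as 250 bases of that of Idi1 and 214 of that of Msmo1.

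Libraries held 15220884 to 20496258 reads in genes, and 17871 to 19922 genes were read at least once. The 8 listed macrophage markers, Adgre1 and Csf1r among them, were read in every group, with a summed level of 3837 to 6521 CPM in monocyte-derived libraries, 6340 to 7906 in converted ones and 6688 to 7006 in resident ones. CPM stands for reads per 1000000 of the library size, scaled by the TMM method. The 10 listed B-cell markers, of which none was at 0, summed to 40.6 to 81.7 CPM in monocyte-derived libraries, 71.4 to 183.5 in converted ones and 1182 to 1528 in resident ones. The 14 cell-cycle genes summed to 379.2 to 1007, 2366 to 3536 and 1837 to 2000 CPM, and the 7 neutrophil markers to 53.1 to 89.1, 10.2 to 19.9 and 17.0 to 17.8 CPM in the same order. Xist had 3247 reads in the monocyte-derived, 0 in the converted and 2 in the resident libraries, and the Y-linked Ddx3y had 0, 5190 and 5218, so sex-linked transcripts also separate the monocyte-derived libraries from both others. The part of any of these in the values below was not tested, and in sorted bulk RNA fewer cells of a type and less RNA per cell cannot be told apart.

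Converted and resident macrophages held more transcript for the first steps of fatty acid synthesis, and far less for esterifying and hydroxylating cholesterol, than monocyte-derived macrophages, while 13 and 15 of the 19 genes from mevalonate to cholesterol did not pass the test. In converted against monocyte-derived libraries, 13 of the 33 members were called (edgeR's quasi-likelihood test, adjusted p under 0.05), 7 higher and 6 lower. The share of members called was 39.4%, below the 50.7% of all genes tested (25.8% higher and 24.9% lower). In resident against monocyte-derived libraries, 12 members were called, 8 higher and 4 lower, or 36.4% of the members beside 50.7% of all genes (25.7% higher and 24.9% lower). The median log2 difference over the 33 members was -0.12 for converted and 0.10 for resident libraries, beside -0.01 and 0.00 over all genes. Both comparisons use the same monocyte-derived libraries, so their values are given side by side and not as support for each other.

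**Figure D1:**
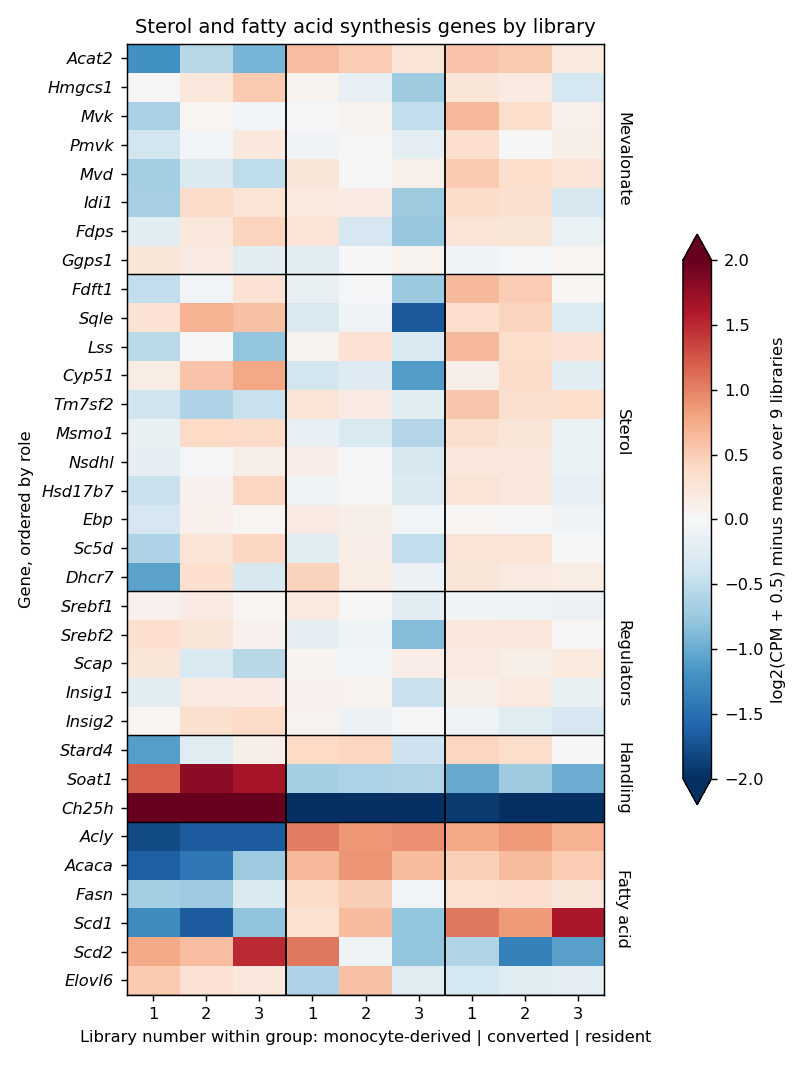
Level of each of the 33 genes (rows, grouped by role) in each of the 9 libraries (columns), as log2(CPM + 0.5) minus the gene's mean over the libraries, with colours capped at 2 in either direction. Acly and Acaca are blue in the 3 monocyte-derived columns and red in the 6 others, Soat1 and Ch25h are the reverse, and most cholesterol rows show paler colours.

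In the mevalonate arm 2 of 8 genes, Acat2 and Mvd, rose in converted and in resident libraries, and 0 fell. That is 25.0% called in each comparison, below the 50.7% of all genes. Gene positions here and below are those of GENCODE M21 on GRCm38. Acat2 (chr17:12942890-12960747), the cytosolic thiolase that joins acetyl-CoA units, was read at 4.69, 7.69 and 5.83 CPM in the monocyte-derived libraries, at 17.9, 16.7 and 13.8 in the converted and at 17.3, 16.8 and 13.3 in the resident libraries. Every converted and resident library lay above every monocyte-derived one. The gene was 2.66-fold higher in converted (log2 1.41 ± 0.20 SE, adjusted p = 0.0002543) and 2.6-fold higher in resident libraries (adjusted p = 0.0003052), and converted and resident libraries overlapped.

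Mvd, which makes isopentenyl diphosphate, was read at 42.8, 56.7 and 48.7 CPM in monocyte-derived, 81.9, 68.7 and 74.7 in converted and 99.9, 88.8 and 82.4 in resident libraries. The 3 groups did not overlap, and the converted libraries lay between the others. The rise was 1.52-fold in converted (adjusted p = 0.00211) and 1.83-fold in resident libraries (adjusted p = 0.0002262), while the difference between those groups did not pass (log2 -0.27 ± 0.12 SE, adjusted p = 0.2395).

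The other 6 genes of the arm did not pass in either comparison. Hmgcs1, which makes HMG-CoA, was read at 49.98, 56.9 and 70.3 CPM in monocyte-derived, 51.6, 43.7 and 29.6 in converted and 58.2, 54.8 and 38.2 in resident libraries, and the groups overlapped. Its converted value was log2 -0.50 (adjusted p = 0.08936), and without converted library 1 it passed, at -0.68 (adjusted p = 0.0437). Mvk (mevalonate kinase) averaged 9.77 ± 2.43, 10.2 ± 2.06 and 14.9 ± 3.0 CPM (SD, n = 3) in monocyte-derived, converted and resident libraries, and its resident value, log2 0.61, lay just outside the threshold (adjusted p = 0.05189). It passed under limma-voom, DESeq2 and no filter (adjusted p of 0.0452, 0.032 and 0.0292) and without monocyte-derived library 2, converted library 3 or resident library 3 (0.0351, 0.046 and 0.0437).

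Pmvk (phosphomevalonate kinase), Idi1 (isopentenyl-diphosphate isomerase) and Ggps1 (geranylgeranyl diphosphate synthase) ranged from 18.7 to 30.6, from 25.5 to 54.5 and from 18.97 to 26.5 CPM over the 9 libraries, with adjusted p of at least 0.289 against the monocyte-derived group. Fdps (farnesyl diphosphate synthase) was read at only 0.619 to 2.07 CPM. The gene shares 26.71% of its exon length with Gm43738 on the same strand, and reads of near-identical copies or overlapping genes may have been dropped in the authors' counting, so its level is uncertain.

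Few of the 11 genes between squalene and cholesterol were called. In converted libraries 3 fell (Sqle, Cyp51, Msmo1) and 1 rose (Tm7sf2), and in resident libraries 2 rose (Lss, Tm7sf2) and 0 fell. These are 36.4% and 18.2% of the 11, below the 50.7% of all genes in each comparison. Sqle (chr15:59315077-59331192), the epoxidase that takes the first oxygen-dependent step, was read at 53.6, 70.9 and 66.1 CPM in monocyte-derived, 35.2, 41.1 and 13.3 in converted and 55.4, 60.1 and 36.2 in resident libraries. All 3 converted libraries lay below the monocyte-derived ones, library 3 lowest, and the resident libraries overlapped both. The fall in converted libraries was 2.12-fold (log2 -1.09 ± 0.35 SE, adjusted p = 0.02812).

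Cyp51 (chr5:4081145-4104746), which removes a methyl group from lanosterol, was read at 40.5, 54.8 and 62.8 CPM in monocyte-derived, 28.2, 30.4 and 16.6 in converted and 39.8, 47.5 and 31.2 in resident libraries. Converted libraries were the lowest 3 of the 9, and the other groups overlapped. The gene was 2.1-fold lower in converted than in monocyte-derived libraries (log2 -1.07 ± 0.25 SE, adjusted p = 0.00564), and its resident value, log2 -0.42, did not pass (adjusted p = 0.189). Msmo1, a methylsterol oxidase of a later step, averaged 87.2 ± 17.7, 58.6 ± 8.69 and 83.1 ± 13.3 CPM (SD, n = 3) in monocyte-derived, converted and resident libraries. It was 1.49-fold lower in converted than in monocyte-derived libraries (adjusted p = 0.02192).

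Tm7sf2, a sterol reductase, averaged 2.89 ± 0.257, 4.56 ± 0.851 and 5.83 ± 0.585 CPM (SD, n = 3) in the same order. It was 1.58-fold higher in converted (adjusted p = 0.02204) and 2.01-fold higher in resident libraries (adjusted p = 0.00227), and shares 12.08% of its exon length with Vps51 on the same strand. Lss, the cyclase that makes lanosterol, averaged 11.1 ± 3.28, 15.4 ± 3.2 and 20.5 ± 2.94 CPM (SD, n = 3) and was 1.84-fold higher in resident libraries (log2 0.88 ± 0.23 SE, adjusted p = 0.008789). Its converted value was log2 0.47 (adjusted p = 0.113), and without monocyte-derived library 2 it passed, at 0.73 (adjusted p = 0.0177).

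Under some alternatives the Sqle, Msmo1 and Tm7sf2 values in converted libraries no longer passed, while their sizes moved little. For Sqle this was so when monocyte-derived library 2 or 3 was left out (log2 -0.99 and -1.06, adjusted p of 0.0803 and 0.0614) or with no filter (-1.05, 0.148). For Msmo1 it was so when library 2 or 3 of either group was left out (log2 -0.46 to -0.58, adjusted p of 0.0525 to 0.0837). For Tm7sf2 it was so when converted library 1 or 2 or monocyte-derived library 2 was left out (log2 0.55 to 0.62, adjusted p of 0.0599 to 0.0805) or with those 2 groups fitted alone (0.67, 0.0584). The Cyp51 call, and the Lss and Tm7sf2 calls in resident libraries, held under all 15 alternatives.

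No call was made for the other 6 genes of the arm in either comparison. Fdft1 (squalene synthase), with 18.31% of its exon length opposite exons of Ctsb, ranged from 12.8 to 34.6 CPM. Nsdhl, Hsd17b7, Ebp, Sc5d and Dhcr7, which carry out later steps on the way to cholesterol, ranged from 20.5 to 30.1, 9.01 to 17.0, 59.0 to 83.9, 25.0 to 51.5 and 12.9 to 38.3 CPM over the 9 libraries. Nsdhl and Ebp lie on the X chromosome, and their group means were 25.2, 24.5 and 27.7 CPM and 71.9, 78.8 and 74.0 CPM. Dhcr7 was read at 12.9, 35.1 and 21.95 CPM in the monocyte-derived libraries, and without library 2 of that group it passed as higher in both comparisons (adjusted p of 0.0125 and 0.0112). Sc5d passed as lower in converted libraries without monocyte-derived library 1 (adjusted p = 0.0242).

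**Figure D2:**
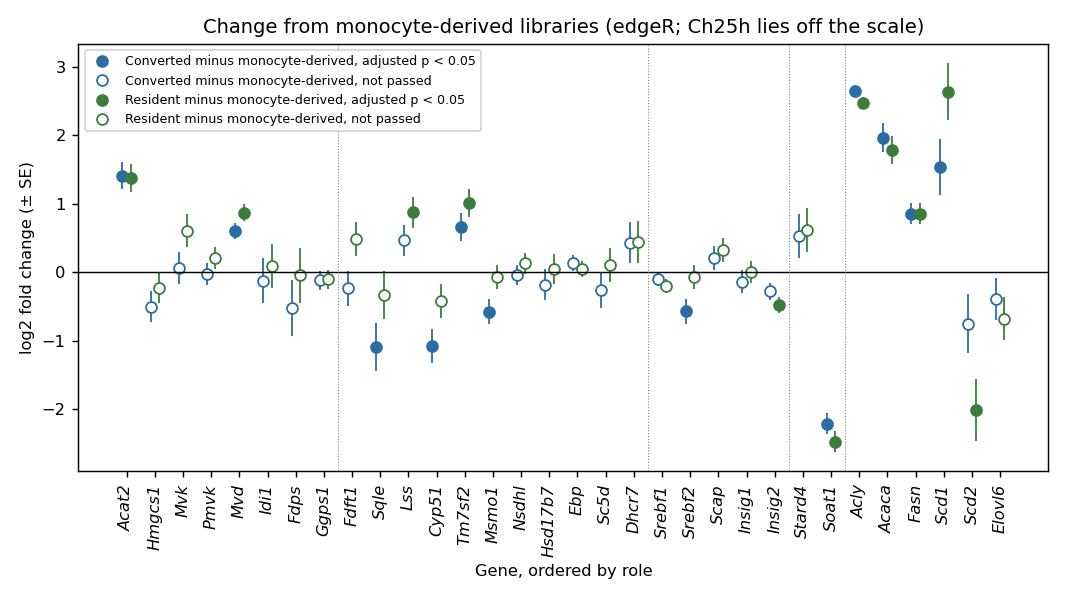
Log2 fold change with its standard error for 32 of the 33 genes (x axis, ordered by role) in converted (blue) and resident (green) against monocyte-derived libraries; filled points passed an adjusted p of 0.05 in edgeR's quasi-likelihood test, and Ch25h lies off the scale. The filled points farthest from 0 are those of Acat2, Soat1, Acly, Acaca and Scd1 in both comparisons and Scd2 in resident libraries.

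Among the 5 regulators, 1 fell in converted libraries (Srebf2), 1 fell in resident libraries (Insig2) and 0 rose. In each comparison the share of regulators called was below the 50.7% of all genes. The share called lower was also below the 24.9% of all genes called lower. Srebf2, which encodes the SREBP of the cholesterol route, was read at 132.0, 123.4 and 110.4 CPM in monocyte-derived, 92.0, 97.9 and 56.7 in converted and 120.8, 122.1 and 105.5 in resident libraries. Converted libraries were the lowest 3, with a 1.48-fold fall against monocyte-derived libraries (log2 -0.57 ± 0.18 SE, adjusted p = 0.02328). The value stayed at log2 -0.51 to -0.56 but missed the threshold when monocyte-derived library 1 or 2 was left out (adjusted p of 0.0584 and 0.0564), with no filter (0.0628) and in a fit of those 2 groups alone (0.0558).

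Srebf1, whose products drive fatty acid synthesis, averaged 85.9 ± 3.92, 80.3 ± 11.1 and 75.1 ± 1.56 CPM (SD, n = 3), with log2 values of -0.10 (adjusted p = 0.4531) and -0.19 (adjusted p = 0.136) that did not pass. The counts do not separate its isoforms. Insig2, a retention factor, averaged 31.7 ± 3.82, 26.1 ± 1.73 and 22.8 ± 2.14 CPM (SD, n = 3) and was 1.39-fold lower in resident libraries (log2 -0.47 ± 0.12 SE, adjusted p = 0.008192). In converted libraries it was log2 -0.28 (adjusted p = 0.07802), and passed without monocyte-derived library 1 (0.0173).

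Insig1, the retention factor that is itself an SREBP target, averaged 57.6 ± 8.44, 52.4 ± 10.4 and 58.0 ± 6.89 CPM (SD, n = 3) and did not pass in any comparison. Scap averaged 24.8 ± 7.49, 28.8 ± 1.88 and 31.1 ± 0.905 CPM (SD, n = 3). Monocyte-derived library 1 held 33.2 CPM of Scap against 22.4 and 18.8 in the others of its group, and without it the gene passed as higher in converted (log2 0.48, adjusted p = 0.0051) and resident libraries (log2 0.59, adjusted p = 0.00149). Per kilobase of exon, Srebf1 levels were 15.2, 14.3 and 13.3 CPM and Srebf2 levels 17.0, 11.4 and 16.2 CPM in monocyte-derived, converted and resident libraries, so the levels of the genes for both SREBPs were of similar size.

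The largest falls were in the genes that esterify and hydroxylate cholesterol. Soat1 (chr1:156424525-156474331), which stores cholesterol as esters, was read at 297.0, 450.8 and 407.3 CPM in monocyte-derived, 80.8, 83.5 and 85.8 in converted and 64.6, 79.4 and 64.9 in resident libraries. The monocyte-derived libraries stood far above both others, and every converted library lay above every resident one by a small margin. The gene was 4.62-fold lower in converted (log2 -2.21 ± 0.15 SE, adjusted p = 2.037e-06) and 5.53-fold lower in resident libraries (log2 -2.47 ± 0.15 SE, adjusted p = 1.228e-06), and the difference between those groups did not pass (log2 0.26, adjusted p = 0.3563).

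Ch25h (chr19:34473778-34475164), the enzyme that makes 25-hydroxycholesterol, was read at 19.8, 78.6 and 46.0 CPM in monocyte-derived libraries. It was at 0 in all 3 converted libraries and at 0.11, 0.0525 and 0.049 CPM in the resident ones. These are 2442 reads over the monocyte-derived group, 0 over the converted and 4 over the resident group. The level was at least 899-fold lower in converted libraries, counting the group as if it held 3 reads (adjusted p = 5.239e-05), and 684-fold lower in resident libraries with a 95% counting interval of 267 to 2510 (adjusted p = 6.114e-05). The interval and the floor cover counting error only, and 11.46% of the exon length lies opposite exons of Gm26902. Stard4, which moves sterol between membranes, averaged 11.5 ± 4.66, 16.6 ± 5.04 and 17.6 ± 2.8 CPM (SD, n = 3) and did not pass, except in resident libraries without monocyte-derived library 3 (adjusted p = 0.0497).

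Fatty acid synthesis held the largest rises. Of its 6 genes, Acly, Acaca, Fasn and Scd1 rose in converted libraries and 0 fell, and in resident libraries these 4 rose and 1, Scd2, fell, with median log2 values of 1.20 and 1.32 over the 6. The shares called were 66.7% and 83.3%, beside 50.7% of all genes in each comparison. Acly (chr11:100476353-100528000), which cuts citrate to the acetyl-CoA used by both routes, was read at 402.7, 436.4 and 436.8 CPM in monocyte-derived libraries, 2813, 2540 and 2628 in converted ones and 2338, 2503 and 2254 in resident ones. The 3 monocyte-derived libraries lay close together and far below all 6 others, and converted libraries lay above resident ones. The gene was 6.26-fold higher in converted (log2 2.65 ± 0.09 SE, adjusted p = 3.233e-08) and 5.56-fold higher in resident libraries (log2 2.48 ± 0.09 SE, adjusted p = 4.463e-08).

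Acaca (chr11:84129672-84401651), the carboxylase that makes malonyl-CoA, was read at 13.7, 15.7 and 25.9 CPM in monocyte-derived, 68.5, 80.0 and 67.0 in converted and 60.3, 67.1 and 61.9 in resident libraries. Converted and resident libraries overlapped and all lay above the monocyte-derived ones, of which library 3 was highest. The gene was 3.91-fold higher in converted (log2 1.97 ± 0.21 SE, adjusted p = 4.015e-05) and 3.43-fold higher in resident libraries (log2 1.78 ± 0.21 SE, adjusted p = 7.569e-05).

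Fasn, which assembles palmitate, averaged 40.8 ± 7.12, 73.9 ± 14 and 73.8 ± 2.68 CPM (SD, n = 3) in monocyte-derived, converted and resident libraries. The rise was 1.81-fold in both comparisons (adjusted p of 0.001162 in converted and 0.001225 in resident libraries). Among Acly, Acaca and Fasn the fold was largest for Acly and smallest for Fasn in both comparisons, an order among genes that was not tested, and the calls of Acly, Acaca and Fasn held under all 15 alternatives. The promoter windows printed above hold CCAAT before Fasn and not before Acly, and any relation to the size of the rise was not tested.

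The stearoyl-CoA desaturases, which put the first double bond into saturated fatty acids, moved in opposite directions in resident libraries, where Scd1 rose and Scd2 fell, while in converted libraries Scd1 rose and Scd2 did not pass. Scd1 (chr19:44394455-44407879) was read at 2.45, 1.73 and 3.56 CPM in monocyte-derived, 8.22, 10.5 and 3.66 in converted and 14.3, 12.3 and 21.5 in resident libraries. The 3 groups did not overlap, though converted library 3 lay just above the monocyte-derived range. The gene was 2.9-fold higher in converted (log2 1.54 ± 0.41 SE, adjusted p = 0.01134) and 6.22-fold higher in resident libraries (log2 2.64 ± 0.41 SE, adjusted p = 0.0005372).

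Scd2 (chr19:44293674-44306864) was read at 105.2, 95.7 and 176.4 CPM in monocyte-derived, 129.7, 58.4 and 35.8 in converted and 40.9, 24.1 and 28.9 in resident libraries. Resident libraries all lay below the monocyte-derived ones, and converted libraries overlapped both. The gene was 4.02-fold lower in resident libraries (log2 -2.01 ± 0.45 SE, adjusted p = 0.004452), and its converted value, log2 -0.75, did not pass (adjusted p = 0.1747). Without converted library 1, which held 129.7 CPM, the converted value passed at log2 -1.41 (adjusted p = 0.00996).

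Set on one scale of reads per kilobase of exon, Scd1 made up 2.54%, 1.98% and 2.21% of the summed Scd1 and Scd2 level in monocyte-derived, 6.61%, 16.7% and 10.2% in converted and 28.0%, 36.3% and 45.3% in resident libraries. The shares of the 3 groups did not overlap, and converted libraries lay between the others. The genes are close paralogs that lie near each other on chromosome 19, and reads that fit both cannot be assigned with certainty. Elovl6, which lengthens palmitate to stearate, averaged 5.22 ± 0.661, 4.0 ± 1.99 and 3.27 ± 0.227 CPM (SD, n = 3). Its resident value, log2 -0.68, did not pass (adjusted p = 0.09855), but did without converted library 2 (0.0251) or in a fit of those 2 groups alone (0.0283), and without converted library 2 the converted value passed too (log2 -0.86, adjusted p = 0.0181).

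**Figure D3:**
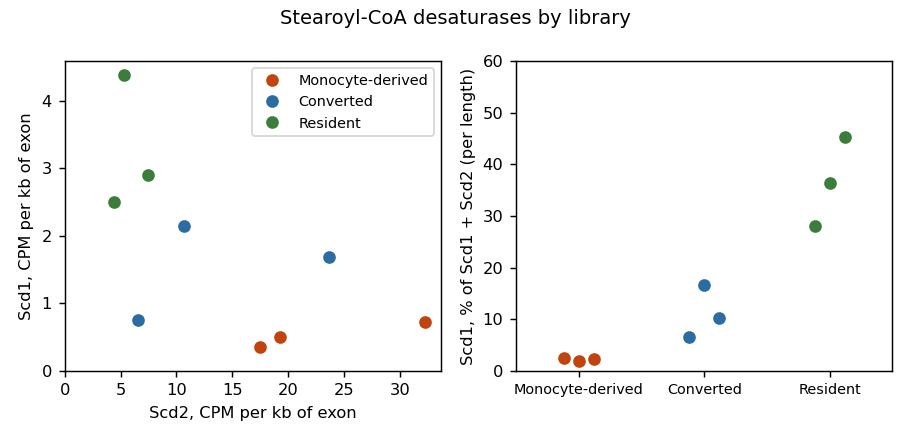
Left, level of Scd1 (y axis) against Scd2 (x axis) in each library, both in CPM per kilobase of exon; right, Scd1 as a percentage of the sum of both on that scale, by group. The share runs from 1.98% to 2.54% in the 3 monocyte-derived libraries, from 6.61% to 16.7% in the converted and from 28.0% to 45.3% in the resident ones.

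**Figure D4:**
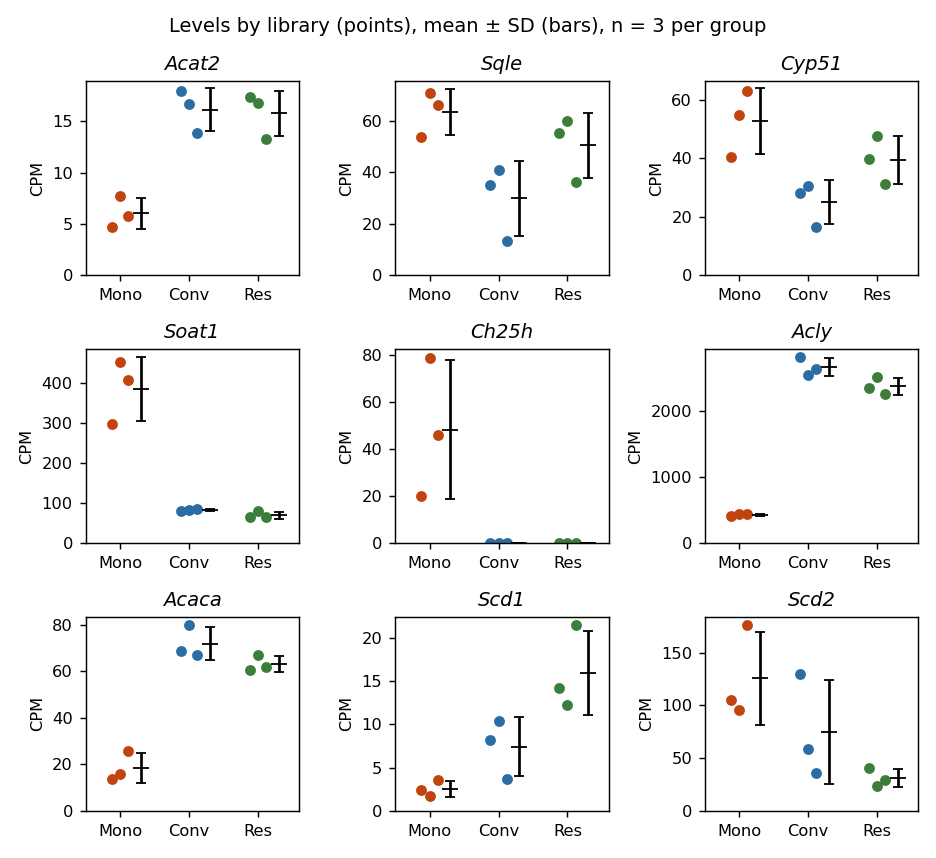
CPM (y axis, from 0) of the 9 genes called in at least 1 comparison with a fold of at least 2 and a higher-group mean of at least 10 CPM, with 1 point per library and bars for the mean ± SD of the 3 libraries of a group (Mono, monocyte-derived; Conv, converted; Res, resident). Soat1 and Ch25h are high in monocyte-derived libraries, Acat2, Acly and Acaca are low there, and Scd1 is highest and Scd2 lowest in resident libraries.

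Compared per kilobase of exon, Acly was the most abundant member in all 3 groups, at 80.6, 504.0 and 448.0 CPM per kilobase in monocyte-derived, converted and resident libraries. In monocyte-derived libraries Soat1 (39.3), Ch25h (34.7), Ebp (31.1), Mvd (26.6) and Scd2 (23.0) followed. In converted libraries Mvd (40.4) and Ebp (34.1) came next, and so they did in resident libraries (48.6 and 32.0). Fasn stood at 3.73, 6.75 and 6.74 and Acaca at 1.08, 4.21 and 3.69 on this scale, far below Acly in every group.

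Members can also be described by whether the libraries of the groups overlap, with no model. Of the 33 members, 13 were apart between converted and monocyte-derived libraries, a smaller share than the 56.3% of all genes tested. Between resident and monocyte-derived libraries 15 of the 33 were apart, also a smaller share than the 59.5% of all genes. All 6 fatty acid genes were apart in resident libraries and 4 of them in converted libraries, while of the 19 mevalonate and sterol genes 5 and 6 were. The median log2 value of those 19 was 0.11 in resident and -0.12 in converted libraries. The resident median was 0.00 without monocyte-derived library 1, and the converted median turned to 0.04 without monocyte-derived library 3 or converted library 3, so the direction of both rests on single libraries.

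Converted and resident libraries were also compared with each other. No member was called (edgeR's quasi-likelihood test), against 6.07% of all genes (1.82% higher and 4.26% lower in converted). At an unadjusted p under 0.05 there were 8 members (Mvk, Mvd, Fdft1, Cyp51, Msmo1, Srebf2, Scd1 and Scd2), against 2749 of the 13223 genes. DESeq2 called 1, Scd1 (log2 -1.11, adjusted p = 0.0465), and limma-voom 0. The fit of these 2 groups alone called 1, Msmo1 (log2 -0.52, adjusted p = 0.0358), which was also the single call without monocyte-derived library 1 (adjusted p = 0.0384). The libraries did not overlap for 12 of the 33 members, about the share of all genes (37.3%). Ch25h is among the 12, with 0 reads in the converted and 4 in the resident group.

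The largest differences between converted and resident libraries among members with at least 10 CPM were those of the desaturases, Scd2 (log2 1.26 ± 0.44 SE, adjusted p = 0.1403) and Scd1 (log2 -1.10 ± 0.38 SE, adjusted p = 0.1287). Sqle followed (log2 -0.76, adjusted p = 0.2649), with overlapping libraries, then Fdft1, at 17.9 ± 4.43 CPM in the converted group and 29.5 ± 6.3 in the resident group (SD, n = 3; log2 -0.72 in edgeR, adjusted p = 0.1347), then Cyp51 (log2 -0.65, adjusted p = 0.174). Acly (log2 0.17, adjusted p = 0.2923), Acaca (log2 0.19, adjusted p = 0.641) and Fasn (log2 0.00, adjusted p = 0.9951) had small values, with standard errors of 0.08, 0.19 and 0.15.

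Of the 19 mevalonate and sterol genes, 17 had a lower value and 2 a higher value in converted than in resident libraries, with a median log2 value of -0.27 beside 0.01 over all genes. None of the 19 passed. The median stayed negative when each library was left out, from -0.19 without converted library 3 or resident library 1 to -0.41 without resident library 3, with 15 to 17 genes lower. The genes are not independent of each other, since they share these 6 libraries and known regulators.

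Within each group, most of the cholesterol genes were lowest in the same library. The summed level of the 19 mevalonate and sterol genes was 494.7, 698.9 and 695.0 CPM in monocyte-derived libraries, 619.8, 603.2 and 459.3 in converted and 755.4, 724.2 and 586.6 in resident libraries. Of the 19 genes, 16 had their lowest value of the group in monocyte-derived library 1, 17 in converted library 3 and 16 in resident library 3. Over all genes tested, 38.7%, 32.4% and 33.2% had their lowest value in those libraries. In converted library 3 all 11 genes from squalene to cholesterol were at their lowest. Highest values of the 19 fell in libraries 1, 2 and 3 for 2, 9 and 8 genes in the monocyte-derived group. The counts were 10, 8 and 1 in the converted group and 14, 4 and 1 in the resident group.

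Median log2 levels of the 19 genes against the group mean were -0.37 in monocyte-derived library 1, -0.33 in converted library 3 and -0.25 in resident library 3. In those libraries 2, 4 and 2 of the 6 fatty acid genes had their lowest value, with medians of -0.10, -0.31 and -0.04. Converted library 3 was thus low for both sets, and 25 of all 33 members had their lowest converted value there. The summed level of the fatty acid genes was 567.4, 590.7 and 696.4 CPM in monocyte-derived libraries, 3101, 2780 and 2796 in converted ones and 2531, 2686 and 2441 in resident ones. Acly held most of that sum in every library. Mitochondrial transcripts made up 0.63% of reads in monocyte-derived library 1 against 0.384% and 0.882% in the others, 0.33% in converted library 3 against 0.352% and 0.313%, and 0.599% in resident library 3 against 0.574% and 0.496%. The low library for the cholesterol genes had the middle share in the monocyte-derived and converted groups and the highest, by a small margin, in the resident group. Reads in no annotated gene made up 5.066% in monocyte-derived library 1 against 4.018% and 4.361%, 4.391% in converted library 3 against 4.292% and 4.03%, and 5.658% in resident library 3 against 5.329% and 4.731%. Genes read at least once numbered 18918 against 18525 and 17871, 18677 against 18657 and 18636, and 19922 against 19627 and 19360 in the same order. The low library was thus the highest of its group in both of these measures, in all 3 groups, though by small margins in the converted group. Reads in genes followed no such order. The low library ranked in the middle of the monocyte-derived group (17301844 reads) and lowest in the converted group (18593287). In the resident group it ranked highest (20396897). The part of any of these measures in the pattern was not tested. 

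**Figure D5:**
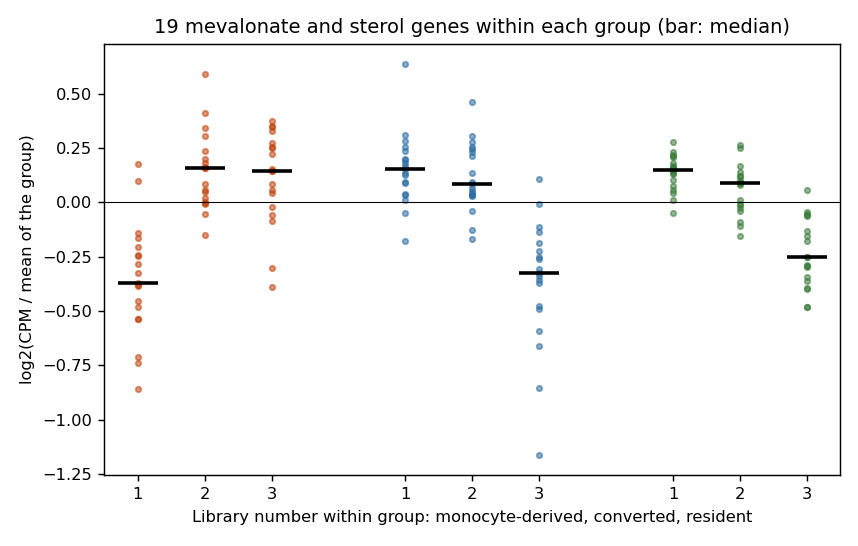
Log2 of the level of each of the 19 mevalonate and sterol genes over the mean of its group (y axis) in each library (x axis), with 1 point per gene and a bar at the median. Monocyte-derived library 1, converted library 3 and resident library 3 sit below the others of their group, with medians of -0.37, -0.33 and -0.25.

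A list of 61 other genes of these pathways, of which 58 were tested, was called about as often as all genes. It covers further steps of sterol and isoprenoid synthesis, SREBP processing, cholesterol uptake and transport, the liver X receptors with their targets, and fatty acid desaturation, elongation and glyceride assembly. In converted against monocyte-derived libraries 32 were called, 12 higher and 20 lower (55.2%), and in resident against monocyte-derived libraries 31, 11 higher and 20 lower (53.4%), beside the 50.7% of all genes in each.

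Among the highest of these was Me1, the malic enzyme that supplies NADPH for fatty acid synthesis. It was read at 0.267, 0.752 and 0 CPM in monocyte-derived, 12.1, 18.6 and 32.9 in converted and 23.6, 26.2 and 15.03 in resident libraries. It rose 59.6-fold in converted (log2 5.90 ± 0.65 SE, adjusted p = 6.424e-05) and 60.8-fold in resident libraries (adjusted p = 6.317e-05), on very low monocyte-derived counts. Mlxipl, which encodes the carbohydrate-responsive factor ChREBP that also drives fatty acid synthesis genes, averaged 17.8 CPM in monocyte-derived libraries, 140.9 in converted ones and 141.9 in resident ones. Its rise was 7.95-fold in converted (adjusted p = 4.259e-06) and 8.01-fold in resident libraries (adjusted p = 4.446e-06). Whether it had any part in the values of the fatty acid genes was not tested.

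Apoe, a liver X receptor target that carries cholesterol out of macrophages, averaged 101.9, 767.1 and 511.6 CPM and rose 7.53-fold in converted (adjusted p = 0.0003242) and 5.03-fold in resident libraries (adjusted p = 0.001144). Abca1, a cholesterol exporter and target of the same receptors, was read at 4.43, 13.5 and 22.6 CPM in monocyte-derived and 3.8, 0.892 and 4.11 in resident libraries, a 4.57-fold fall (adjusted p = 0.02812). Abca1 missed the threshold when monocyte-derived library 2 or 3 or resident library 1 or 2 was left out (log2 -1.60 to -2.41, adjusted p of 0.0564 to 0.1), with no filter (-2.16, 0.132) and under limma-voom (-2.12, 0.0682).

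Fads3 and Fads1, of the fatty acid desaturase cluster on chromosome 19, held the largest falls of the list by this rule. Fads3 averaged 22.2 CPM in monocyte-derived libraries and 0.332 and 0.213 in converted and resident ones, a 65.2-fold (adjusted p = 2.88e-07) and 103.0-fold fall (adjusted p = 2.392e-07). Fads1, the delta-5 desaturase, fell 6.2-fold (adjusted p = 0.006387) and 6.09-fold (adjusted p = 0.006733), and with no filter neither passed (0.0518 and 0.0517). Agpat2, which builds phosphatidic acid, fell 3.6-fold in converted (adjusted p = 8.038e-06) and 3.8-fold in resident libraries (adjusted p = 6.42e-06).

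Between converted and resident libraries 2 of the 58 were called (3.45%), beside 6.07% of all genes. Both were higher in converted libraries, as were 1.82% of all genes. Gpam, which starts glycerolipid synthesis, was read at 15.4, 14.6 and 15.4 CPM in converted and 9.02, 9.18 and 7.78 in resident libraries, 1.75-fold higher (log2 0.80 ± 0.15 SE, adjusted p = 0.01262). Elovl5, an elongase of polyunsaturated fatty acids, was read at 183.2, 172.5 and 189.4 against 120.5, 136.7 and 133.5 CPM, 1.39-fold higher (adjusted p = 0.02313). The groups did not overlap for either gene, but Gpam did not pass without converted library 1 or 3 or resident library 1 or 3 (log2 0.73 to 0.83, adjusted p of 0.0529 to 0.0758). Elovl5 did not pass without converted library 1 or 3 or any 1 resident library (log2 0.43 to 0.52, adjusted p of 0.0583 to 0.122), so both values kept about their size.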

How the data were processed

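The values are read counts per gene in 9 libraries, deposited by the authors as raw counts. The submitters' processing notes name TopHat2 2.1.0, a spliced aligner, HTSeq, a read counter, and the genome build GRCm38. Which annotation and strand setting were used, and what was done with reads that align in several places, is not stated there. Symbols, coordinates and exon lengths come from GENCODE M21 (47224 of 47729 identifiers matched). Summary lines of the files were excluded; they held 4.018% to 5.658% (no feature) and 4.472% to 4.681% (ambiguous) of reads.

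Tests used edgeR 4.0.16 in R 4.3.3, with filterByExpr (minimum count 10, minimum total 15), TMM scaling, and its robust quasi-likelihood test, fitted once to the 9 libraries (6 residual degrees of freedom). Benjamini-Hochberg adjustment covered 13223 genes, and an adjusted p under 0.05 was called. The standard error (SE) of a log2 value is its size divided by the square root of the test's F statistic. The code was tested on simulated data. No pair of libraries within a group was a duplicate (chi-square per degree of freedom of 5.51 or more).

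The 15 alternatives were RLE scaling, no filter, the replicate number as a block, fits of 2 groups alone, limma-voom (limma 3.58.1), DESeq2 1.42.0 and each of the 9 libraries left out. Members with a called fold of at least 2 and a higher-group mean of at least 10 CPM are given in every library. Other pathway genes are named if they are among the 3 largest called changes per comparison and direction with at least 5 CPM. The members, lists and rules were chosen with earlier results of these data known.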

Additional observations from a re-analysis of the deposited data

How the results depend on the processing

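Over the 15 alternatives, 9 of the 13 members called in converted against monocyte-derived libraries kept their call and direction under every one (Acat2, Mvd, Cyp51, Soat1, Ch25h, Acly, Acaca, Fasn and Scd1), as did all 12 in resident against monocyte-derived libraries, and no called value changed sign. The members called between converted and resident libraries numbered 0, and 1 in the fit of the 2 groups alone and under DESeq2, with 0 to 1 when a library was left out. For the other pathway genes this comparison gave 2 calls, 7 with the 2 groups alone, 5 under DESeq2 and 0 to 6 with a library left out. Over all genes it gave 803, against 2067 with the 2 groups alone, 1364 under DESeq2 and 245 to 1628 with a library left out, the highest without monocyte-derived library 1 and the lowest without resident library 3. The cause was not tested. Same-numbered libraries of different groups did not deviate together over all genes tested (correlations of -0.094 to 0.065), and differently numbered ones gave -0.089 to 0.106. These values show no pairing by number but cannot exclude one. Converted library 3 and resident library 3 were both the low ones for the cholesterol genes. With a replicate block the members called were 13, 12 and 0 in the 3 comparisons and all genes called between converted and resident libraries 530. Depth limits Fdps (65 to 90 reads a group), Tm7sf2 (149 to 335) and Scd1 in the monocyte-derived group (131 reads), and a value that did not pass does not show equal levels.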
